A study of Mus musculus with 2 samples.

Results

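The replication-dependent histone genes were examined as 67 protein-coding genes of the GENCODE M21 annotation, of 21938 protein-coding genes in all, taken by symbol (Hist1h, Hist2h, Hist3h or Hist4h). Neighbours under 500 kb apart were joined, which gave 4 clusters and 1 lone gene: a Hist2 cluster on chromosome 3, a Hist3 pair on chromosome 11, a pair of Hist1 clusters on chromosome 13, and Hist4h4 on chromosome 6. Binding of CTCF, a zinc finger protein found at insulators and chromatin loop anchors, was measured by ChIP-seq in limbs of B6NCrl mouse embryos at 14.5 days. The series holds 2 libraries of 1 group, replicate 1 and replicate 2, prepared from a single pool of pulverised limbs with both sexes mixed, so their spread may be technical. A whole limb mixes cartilage, muscle, skin and blood cells, and a site bound in few cells cannot be told apart from a weakly bound site. CTCF peaks give no level of tissue markers, so the limb label was not checked.

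These genes supply the histones that package newly copied DNA. H2A, H2B, H3 and H4 form the nucleosome core and H1 binds the linker DNA between cores. The genes are short and mostly lack introns, their messenger RNAs end in a stem-loop in place of a poly(A) tail, and in S phase they are transcribed in nuclear structures called histone locus bodies. Here 62 of the 67 had 1 exon in all annotated transcripts, and the median gene spanned 539 bp. H2A and H2B genes often lie head to head with a short shared promoter. For 51 of the 67 genes the 1 kb window around the transcription start site (TSS) overlapped that of another histone gene, so neighbouring genes are not independent measurements.

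Each peak has a signal given by the authors, comparable within a list, and the deposited optimal list of 49959 peaks on the main chromosomes was the set counted. Its values are pooled over both libraries and are called pooled signal below. Values for replicate 1 and replicate 2 come from each library's own list and are lower because the scale differs. With 1 group there is no comparison between conditions, and genes and peaks are not replicates, so shares are set beside the background without a test. Read depth is unknown for these lists.

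Motif sequences of strong CTCF sites at the ends of 2 large clusters are shown first, because their strands give the direction each site faces. Coordinates are mm10. Each line reads 5′ to 3′ on the strand of the motif, with the 20-base CTCF motif in capitals and 20 bases on either side.
First site before Hist1h2bl, chr13:21714889-21714948, forward strand: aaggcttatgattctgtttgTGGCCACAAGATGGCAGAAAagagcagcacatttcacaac
Second site before Hist1h2bl, chr13:21710067-21710126, forward strand: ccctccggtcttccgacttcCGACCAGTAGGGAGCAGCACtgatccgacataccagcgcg
First site past Hist1h2bj, chr13:22044294-22044353, reverse strand: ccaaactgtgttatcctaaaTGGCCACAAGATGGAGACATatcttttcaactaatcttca
Second site past Hist1h2bj, chr13:22051097-22051156, reverse strand: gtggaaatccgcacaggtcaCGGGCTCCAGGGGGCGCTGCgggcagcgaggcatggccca
First site past Hist2h2bb, chr3:96278103-96278162, forward strand: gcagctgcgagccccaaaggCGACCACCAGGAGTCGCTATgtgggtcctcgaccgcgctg
Second site past Hist2h2bb, chr3:96278497-96278556, forward strand: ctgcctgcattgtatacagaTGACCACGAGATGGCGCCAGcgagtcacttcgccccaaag
The 4 sites around the Hist1h2bl to Hist1h2bj cluster faced inward, with both motifs before the cluster on the forward strand and both past it on the reverse strand. Both sites past Hist2h2bb, on the forward strand, faced away from their cluster.

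CTCF summits were found at the promoters of 13 replication-dependent histone genes, and how this share stood to the background depended on how promoters and peaks were counted. A summit lay within 1 kb of a TSS at 13 of the 67 genes (19.4%, exact 95% interval 10.8 to 30.9, counting error only), while 33.4% of all protein-coding genes had such a summit. Among other coding genes with 1 exon the share was 13.4% (168 of 1256), and among olfactory receptor (Olfr) genes, another clustered family, it was 0.705% (8 of 1135). Counting any TSS favours genes with several, and 63 of the 67 histone genes had 1: with only the start of each gene record, the histone share was again 19.4% and that of all coding genes 26.1%, inside the histone interval. With overlapping promoters merged, 11 of 38 histone promoters (28.9%) had a summit. Promoters of all coding genes were not merged in this way, so that share has no like background. In replicate 1 alone 9 genes were occupied and in replicate 2 alone 10, against 34.3% and 33.8% of all coding genes. In the full pooled list, which keeps weak peaks, the gap was absent: 47 histone genes (70.1%) had a summit, against 69.4% of all coding genes.

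**Figure D1:**
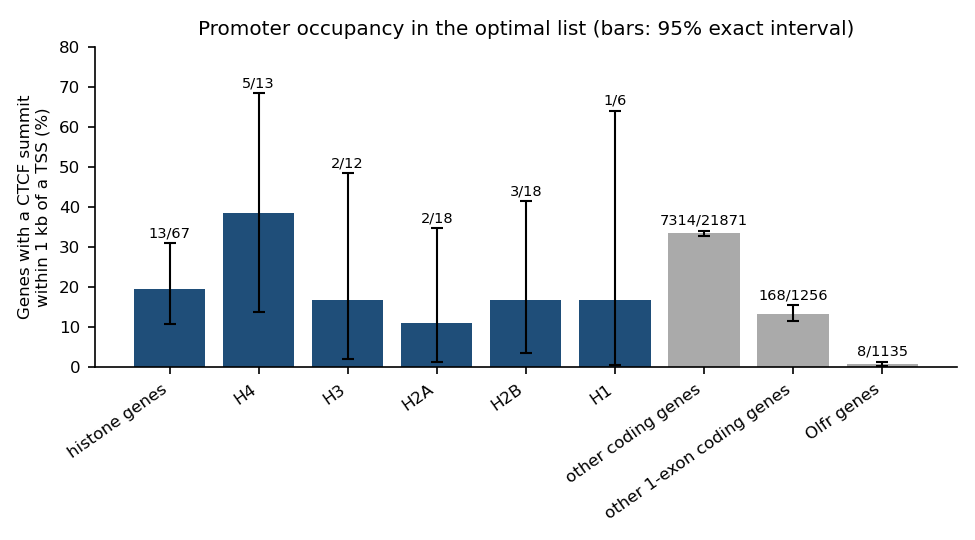
Share of genes with an optimal CTCF summit within 1 kb of a TSS, for all histone genes, each histone class and background gene sets, with the number of genes above each bar. Error bars are exact 95% binomial intervals: the H4 bar is the highest of the 5 classes at 38.5%, and the intervals of the classes overlap.

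H4 genes had the highest share of the 5 classes, with 5 of 13 occupied (38.5%, interval 13.9 to 68.4), followed by H3 with 2 of 12, H2B with 3 of 18, H1 with 1 of 6 and H2A with 2 of 18. The intervals overlap, and the H4 interval includes the share of all coding genes. In the list of replicate 1 the same count of H4 genes, 5, was occupied, and in that of replicate 2 the count was 4. With a limit of 500 bp, 3 of 13 H4 genes (23.1%) were occupied, against 26.8% of all coding genes. H4 still had the highest share of the classes at that limit. A CTCF motif lay within 50 bp of the summit at the strongest peak of all 5 occupied H4 genes, and at 1 of the 8 occupied genes of the other classes, Hist3h2a. Among those 8, Hist2h2ac and Hist2h2be share 1 peak without a motif, as do Hist1h3c and Hist1h2bb, so these peaks count more than once. Of all coding promoter peaks, 63.5% had a motif. At the stricter score that 1% of flanking windows reach, Hist1h4j and Hist1h4c kept the motif, while Hist1h4f, Hist2h4, Hist1h4a and Hist3h2a did not.

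Hist1h4j had the strongest promoter site of the 67 genes. Its pooled signal was 206.0, with 96.0 in replicate 1 and 112.6 in replicate 2, at a summit 776 bp upstream of the TSS in repeat-masked sequence. Hist1h4c followed with 150.9 (85.5 in replicate 1 and 69.1 in replicate 2) at 881 bp, past the 3′ end of the gene, and a second, weak peak of 13.5 lay 32 bp into the gene. Both strong sites were thus closer to the far end of the 1 kb window than to the gene's start.

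Nearer to a start, Hist1h4f had a summit 21 bp upstream of its TSS and a pooled signal of 64.7. Its 2 libraries differed by over 2-fold, with 42.9 in replicate 1 and 20.8 in replicate 2. Hist2h4, on chromosome 3, had 63.3 (30.9 in replicate 1 and 31.4 in replicate 2) at 175 bp upstream. Hist1h4a had 36.2 (19.5 and 17.2 in replicates 1 and 2), 975 bp downstream and past the gene's 3′ end.

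Most promoter sites of the other classes were weaker. Hist3h2a, an H2A gene, had 104.0 (37.3 in replicate 1 and 47.9 in replicate 2) with the summit 434 bp into the gene, where an exon of Trim17 overlaps it. Hist1h3e, an H3 gene, had 98.1 (55.1 and 43.8 in replicates 1 and 2) 956 bp upstream, with no motif. The other 6 genes lay between 13.9 and 30.2 in pooled signal.

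Among those 6, Hist1h1c, a linker histone gene, had 30.2 (16.4 in replicate 1 and 13.3 in replicate 2) at 76 bp inside the gene, in sequence of 67.7% GC. Hist1h2bm, an H2B gene, had 25.8 (15.3 and 10.1 in replicates 1 and 2). The remaining 4 were head-to-head partners that share a peak. Hist2h2ac and Hist2h2be, an H2A and an H2B gene, shared a peak of 15.5 (6.70 in replicate 1 and 10.6 in replicate 2), and Hist1h3c and Hist1h2bb, an H3 and an H2B gene, shared one of 13.9 (9.999 and 3.31 in replicates 1 and 2). Neither shared peak was among the strongest 49959 of both replicate lists, and neither had a motif.

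**Figure D2:**
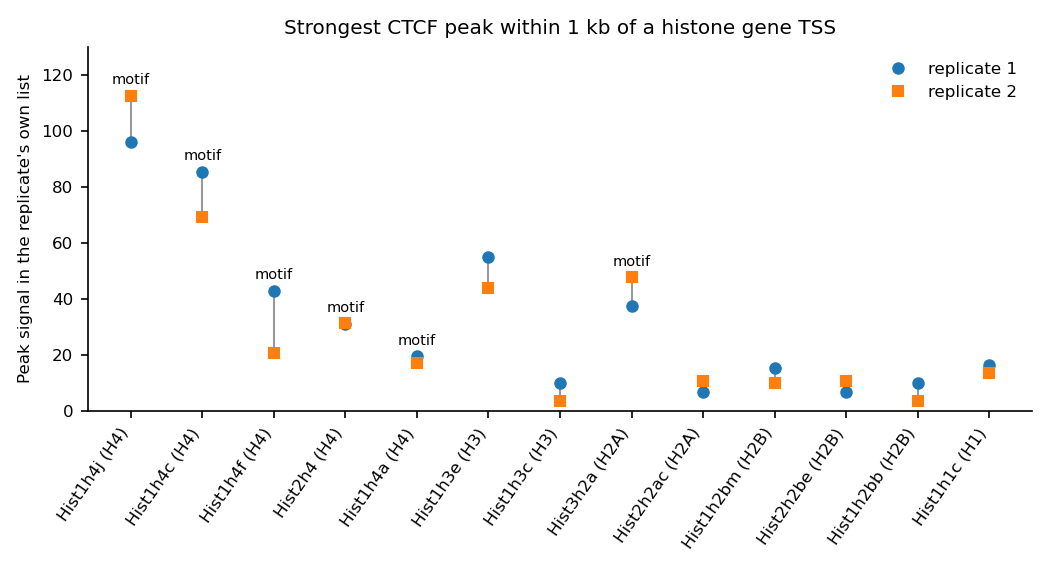
Signal in replicate 1 (circles) and replicate 2 (squares) of the strongest CTCF peak within 1 kb of a TSS, for the 13 histone genes that had one, grouped by histone class and with peaks that carry a CTCF motif labelled. Hist1h4j and Hist1h4c lie above all others in both replicates, and all 5 H4 genes have the motif label.

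The promoter of Hist1h4f is shown because its summit lay closest to a TSS, at base 250 of this RefSeq window on GRCm38.p6 (chr13:23551619-23551918, reverse strand, 250 bases before to 50 after the RefSeq start). The CTCF motif is in capitals and passed the score that 5% of flanking windows reach, but not the score that 1% reach.
Hist1h4f: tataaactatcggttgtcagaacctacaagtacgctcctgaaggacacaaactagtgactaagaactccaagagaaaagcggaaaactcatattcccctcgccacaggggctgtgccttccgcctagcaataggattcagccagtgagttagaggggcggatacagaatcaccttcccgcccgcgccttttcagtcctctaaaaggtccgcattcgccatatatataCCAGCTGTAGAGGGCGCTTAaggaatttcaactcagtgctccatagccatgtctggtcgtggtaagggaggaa
For a shared H2A and H2B promoter, the RefSeq window of Hist2h2ac (GRCm38.p6, chr3:96220831-96221130, reverse strand) is given, with the summit of its weak peak at base 221. Capitals mark the CCAAT box letters, the TATAAA letters and the octamer ATTTGCAT on either strand.
Hist2h2ac: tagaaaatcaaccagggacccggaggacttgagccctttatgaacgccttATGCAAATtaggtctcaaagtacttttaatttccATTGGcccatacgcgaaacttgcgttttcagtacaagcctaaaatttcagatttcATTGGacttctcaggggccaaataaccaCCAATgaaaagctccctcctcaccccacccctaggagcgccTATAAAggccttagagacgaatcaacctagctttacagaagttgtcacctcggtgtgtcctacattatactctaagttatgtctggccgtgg

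Histone promoters shared letters that the choice of genes did not use. RefSeq windows were matched for 62 of the 67 genes and searched on both strands for CCAAT, which binds the factor NF-Y, TATAAA, the TATA box, and ATTTGCAT, the octamer that POU factors bind in H2B promoters. Matches could overlap each other. CCAAT was present in 85.5% of histone windows against 38.1% of all 20353 coding windows, TATAAA in 56.5% against 12.4%, and ATTTGCAT in 20.97% against 1.58%.

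The letters differed by class. All 50 windows of H1, H2A, H2B and H3 genes held CCAAT, while 3 of 12 H4 windows did. The octamer was found in 7 of 18 H2A windows and 6 of 16 H2B windows and in no other class, and head-to-head partners contribute the same stretch to both counts. Windows of genes with a CTCF peak held CCAAT in 9 of 11 cases and those without in 44 of 51, and TATAAA in 5 of 11 and 30 of 51. The octamer went the other way, with 4 of 11 windows of genes with a peak and 9 of 51 of those without. Head-to-head partners can count more than once here too, so these few windows are not independent.

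**Figure D3:**
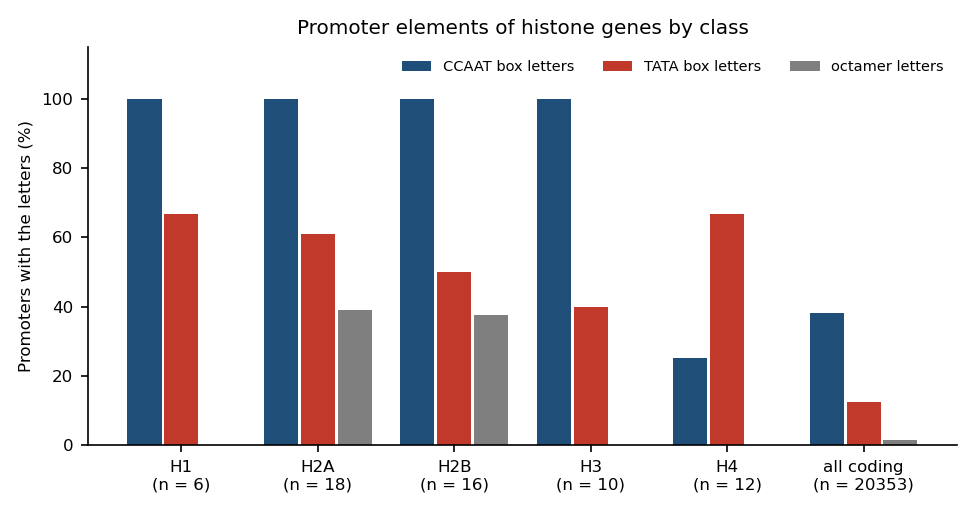
Percent of RefSeq promoter windows that contain the CCAAT box, TATA box or octamer letters on either strand, for each histone class and for all coding genes, with the number of windows under each group. CCAAT reaches 100% in 4 classes and 25% in H4, against 38.1% of all coding windows.

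The 54 genes without a promoter peak had their nearest summit between 1045 and 85663 bp from the TSS, with a median of 8686.5 bp. Hist2h2ab at 1045 bp and Hist1h2bj at 1127 bp were just outside the 1 kb limit, and Hist1h4a at 975 bp and Hist1h3e at 956 bp just inside it. With a limit of 500 bp, 8 genes were occupied (26.8% of all coding genes), and with 5 kb, 28 were (52.03% of all coding genes). The unoccupied genes were 21 of 23 in the Hist1h2bl to Hist1h2bj cluster, 24 of 31 in the Hist1h4h to Hist1h2aa cluster and 7 of 10 in the Hist2 cluster, together with Hist3h2ba and Hist4h4.

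Some histone genes are near-identical copies, and a peak there depends on how the authors treated reads that match several places, which the sources used here do not give. Of the 50-base words within 1 kb of a histone TSS, 76.0% occurred once on the main chromosomes, against 91.7% at cluster edges and 87.9% over the whole inside. For Hist1h2bq, Hist1h2ao, Hist1h2ap and Hist1h2br no such word was unique, for Hist1h4m 6.85% and for Hist1h4n 7.85%. Hist2h3c2 and Hist2h3c1 had 21.9% and 23.4%, and Hist2h2aa2 and Hist2h2aa1 44.2% and 44.5%. None of these 10 genes had a peak, and without them 13 of 57 histone genes (22.8%) were occupied. The share of unique words was 85.2% around the genes with a peak and 73.4% around those without. Its part in the promoter share was not tested beyond leaving out those 10 genes.

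A stretch of 183.6 kb inside the Hist1h2bl to Hist1h2bj cluster held no summit, between the sites at 21734288 and 21917859. It contained 14 histone genes, 13 of them without a promoter peak, among them Hist1h1b, a linker histone gene, Hist1h3i and Hist1h4k. Genome-wide, 5.00% of gaps between neighbouring summits were as long, and the median gap was 18.1 kb. The stretch was picked as the longest of the many gaps in the clusters, so this share does not show it to be unusual. In this stretch 69.9% of 50-base words were unique, and the 6 genes with under 10% unique words all lie in it. Hist1h1b, also in it, had 100% unique words within 1 kb and no peak.

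Over all 5 cluster windows, which run from 50 kb before to 50 kb past the outermost genes, 55 optimal peaks were found, or 4.25 per 100 kb against 1.89 in the whole genome. Of the 55, 48 (87.3%) were also among the strongest 49959 peaks of both replicate lists, against 81.2% of all optimal peaks. The median pooled signal was 65.2, against 58.4 for all optimal peaks. A CTCF motif was present at 43 of the 55 (78.2%, interval 65.0 to 88.2), against 82.0% of all.

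At the edges, which are the 50 kb on either side, 25 summits gave 5.00 per 100 kb, and inside the clusters 30 summits gave 3.78 per 100 kb, a ratio of 1.32. This excess was not stable. The ratio was 1.84 in the list of replicate 1 and 1.81 in that of replicate 2, but 0.925 with edges of 100 kb. Splitting clusters at 100 kb takes long stretches without histone genes out of the inside. Edges then had 4.29 and the inside 4.46 per 100 kb, a ratio of 0.960. With the main limits but without the Hist3 pair, which holds 9 of the 25 edge peaks, the ratio was 1.08. By cluster, the edges and the inside had 8 and 7.96 per 100 kb at the Hist2 cluster, 4 and 3.35 at Hist1h2bl to Hist1h2bj, and 2.00 and 3.47 at Hist1h4h to Hist1h2aa. The Hist3 pair had 9 peaks at its edges and 1 inside its 7.91 kb, and Hist4h4 had 2 past it and none before or inside.

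Taken over all clusters together, edge sites were concentrated close to the outermost histone genes. Of the 25, 20 lay within 25 kb of a cluster end and 5 between 25 and 50 kb, and both zones cover 250 kb in all. All edge sites of the Hist2 cluster and of both Hist1 clusters lay within 25 kb. At the Hist3 pair 2 of 4 sites before it and 3 of 5 past it did, and past Hist4h4 1 of 2. The same zones held 23 and 6 peaks in the list of replicate 1 and 26 and 6 in that of replicate 2. From 50 to 100 kb there were 10 peaks in 500 kb, 2.00 per 100 kb, close to the genome's 1.89. With the same 50 kb edges, other clustered families had larger ratios of edges to inside. The ratio was 5.27 in clusters of 10 or more Olfr genes (2.48 and 0.470 per 100 kb). In keratin clusters it was 2.14 (5.33 and 2.50), from 3 clusters with 16 edge peaks. Olfr and keratin values are given at this setting only. The histone ratio ranged from 0.925 to 2.51 over its settings, a range that includes the keratin value. Histone clusters of 10 or more genes had 1.26. The keratin clusters were chosen for comparison after the histone values were seen.

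**Figure D4:**
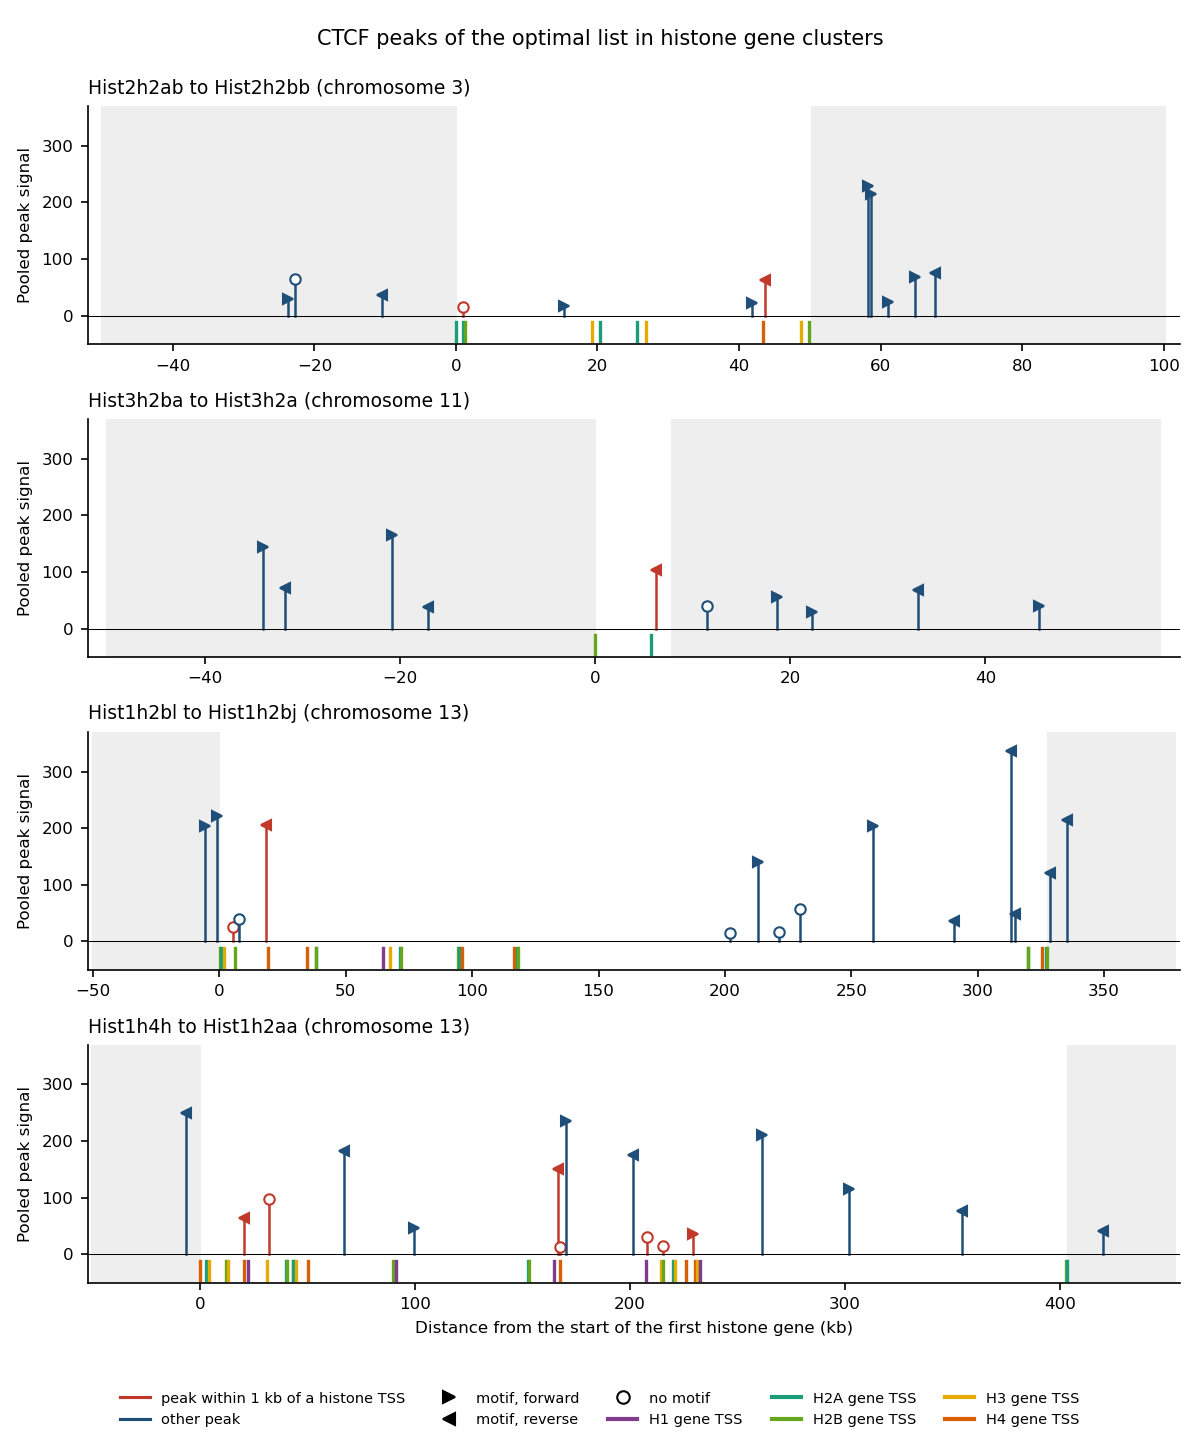
Pooled signal of every optimal CTCF peak in the windows of the 4 clusters, by distance from the start of the first histone gene, with edges shaded, histone TSSs as coloured ticks, and arrowheads for the strand of the motif. In the Hist1h2bl to Hist1h2bj panel the 4 edge sites point inward at signals of 120.2 to 221.1, and no peak stands over the 14 genes in the 183.6 kb gap.

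Strong edge sites lay close to the outermost genes of the Hist1h2bl to Hist1h2bj cluster. Before Hist1h2bl, sites at 843 bp and 5651 bp had pooled signals of 221.1 (107.5 in replicate 1 and 110.2 in replicate 2) and 203.0 (98.5 and 104.9 in replicates 1 and 2). Past Hist1h2bj, sites at 665 bp and 7451 bp had 120.2 (58.2 in replicate 1 and 62.4 in replicate 2) and 213.6 (101.9 and 114.8 in replicates 1 and 2). These are the 4 inward-facing motifs printed above.

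Past Hist1h2aa, at the end of the other Hist1 cluster, 1 weak site of 40.6 (13.5 in replicate 1 and 24.2 in replicate 2) lay 16273 bp away. The Hist2 cluster was lopsided. Past Hist2h2bb, sites at 7999 and 8389 bp had 229.5 (112.3 in replicate 1 and 113.3 in replicate 2) and 215.5 (109.1 and 106.5 in replicates 1 and 2). Before Hist2h2ab the strongest of 3 sites had 65.2 (38.2 and 25.8 in replicates 1 and 2). It lay in an exon of Bola1, within 1 kb of an annotated TSS of that gene but not at the start of its gene record.

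Around the Hist3 pair the strongest edge sites were 164.6 and 143.4, with Btnl10 as the nearest gene, 20800 and 34012 bp before Hist3h2ba, and past Hist3h2a the strongest was 68.7, in an exon of Trim11. Past Hist4h4 the stronger of 2 sites had 101.3, 43566 bp away.

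Strong inside sites lay both at histone promoters and away from them. The strongest of all 55 was at 22028862 on chromosome 13, 6706 bp downstream of the Hist1h2ah TSS, with 336.4 (184.9 in replicate 1 and 152.3 in replicate 2), rank 1045 of the optimal list. In the same cluster followed Hist1h4j, described above, and a site upstream of Pom121l2, at -6861 bp from its TSS, with 203.3 (95.6 and 105.0 in replicates 1 and 2), in the part of the interval that holds Zfp184, Pom121l2 and Prss16 and no histone gene.

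In the Hist1h4h to Hist1h2aa cluster the strongest inside site lay upstream of Hist1h4c, at -2930 bp from its TSS, with 235.3 (114.9 in replicate 1 and 122.8 in replicate 2). A site at -14317 bp from the TSS of Slc17a2, a member of a transporter family whose genes lie between Hist1h1a and Hist1h2ba, had 211.5 (106.6 and 106.2 in replicates 1 and 2). An intronic site of Hist1h2be had 181.8 (95.9 and 84.0 in replicates 1 and 2). In the Hist2 cluster the inside was weak, with 63.3 at Hist2h4, 22.2 and 16.5 as its 3 highest values.

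Of the 30 inside peaks, 12 lay within 1 kb of a histone TSS and 18 farther away. The median pooled signal was 49.7 at the 12 promoter peaks and 66.9 at the other 18. Coding promoters genome-wide had a median of 49.98 and peaks away from them 60.4. A motif was present at 6 of the 12 (50%, interval 21.1 to 78.9) against 63.5% of all coding promoter peaks, and at 14 of the other 18 (77.8%).

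Signal did not separate edges from the inside. The median pooled signal was 68.7 at edges (quartiles 38.9 and 164.6) and 60.0 inside (26.9 and 148.5). In replicates 1 and 2 the medians of the same peaks were 36.9 and 34.3 at edges and 28.3 and 33.5 inside. The inside median of replicate 2 leaves out 2 peaks that have no value in that replicate. When each replicate's own strongest peaks were taken, the median was lower at edges: 35.2 and 42.9 at edges and inside in replicate 1, and 24.99 and 33.5 in replicate 2. What differed in the optimal list was the lower end, since the weakest edge peak had 23.7 and the weakest inside peak 13.5. All 25 edge peaks, and 23 of the 30 inside, were among the strongest 49959 of both replicates.

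**Figure D5:**
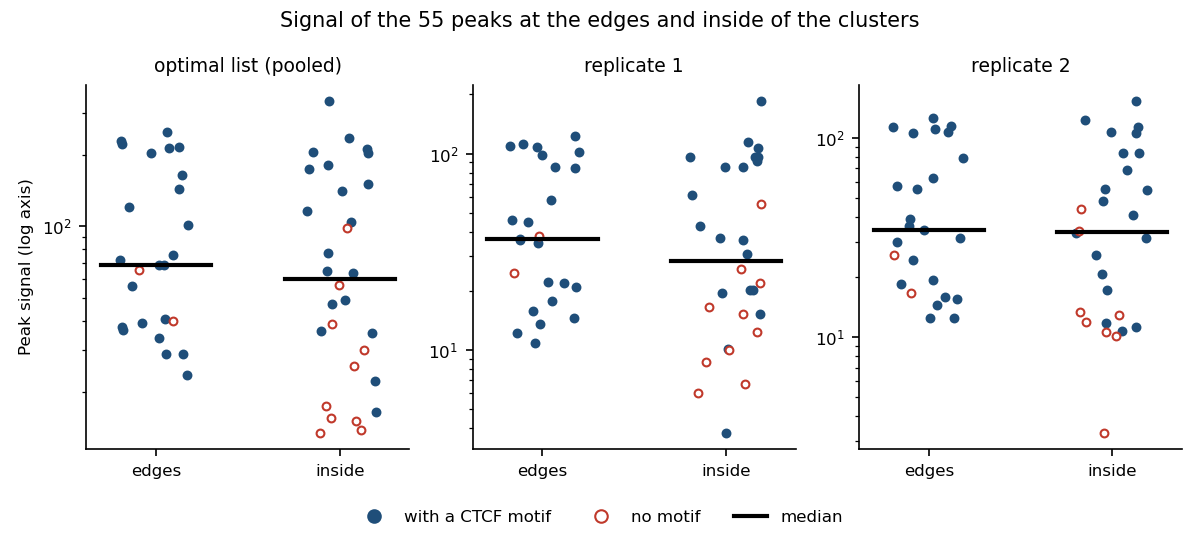
Signal of the 55 peaks at the edges (25) and inside (30) of the histone clusters, in the optimal list and in each replicate, on log axes, with filled points for peaks with a CTCF motif, open points for those without, and bars for medians. The zones overlap over most of their range, and in the optimal list 10 of the 12 open points are inside. The replicate 2 panel lacks 2 inside peaks, both without a motif, that have no value in that replicate.

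Motifs were more frequent at the edges, with 23 of 25 (92.0%, interval 74.0 to 99.0), than inside, with 20 of 30 (66.7%, interval 47.2 to 82.7). The intervals overlap. The order was the same in the list of replicate 1 (86.2% and 72.0%) and in that of replicate 2 (84.4% and 75%), with a smaller gap, and in the conservative list (92.3% and 79.2%). Of the 10 inside peaks without a motif, 6 lay at histone promoters.

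Genes whose products handle histones, and the replacement histones made outside S phase, were set beside the clustered genes. A promoter peak was present at 19.4% of the clustered genes, at 8 of 16 replication-independent histone genes (50%, interval 24.7 to 75.3) and at 33.4% of all coding genes. H2afz, which encodes H2A.Z, had 223.4 (112.9 in replicate 1 and 110.6 in replicate 2), H3f3b, which encodes H3.3, had 193.3, and H2afy2, a macroH2A gene, 90.2. Of 19 genes for transcription and RNA processing of histone genes 9 (47.4%) were occupied, led by Lsm11, a subunit of the U7 particle that trims histone RNA, with 309.3 (155.4 and 152.7 in replicates 1 and 2), Pou2f1, which encodes the octamer factor OCT1, with 76.6, and Npat, a coactivator of histone genes, with 61.05. Of 18 histone chaperone and carrier genes 10 (55.6%) were occupied, led by Asf1b with 277.6, Mcm2 with 211.4 and Cabin1 with 127.5. The intervals of these 3 lists all include the share of all coding genes. All shares here count any TSS, which favours genes with several, and most clustered histone genes have 1. Shares with only the start of each gene record are not given for the 3 lists, so the clustered genes lack a like comparison with them.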

How the data were processed

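The authors deposited 5 peak lists on the mm10 build, and each holds a signal value per peak that is never negative and is scaled within that list. A replicate list comes from the alignments of that library and a further file, per the labels' notes, and the optimal and conservative lists come from both replicate lists and the pooled list. A control experiment that the labels name was not analysed here. The sources used here do not give aligner, peak caller, thresholds or read depth. Gene models were GENCODE M21 and sequence was GRCm38.p6, of which mm10 is the browser name. Read length is not given either, so uniqueness was counted for words of 36 and 50 bases.

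Summits were counted within 1 kb of any annotated TSS and in 50 kb edges. Edges lie outside the outermost genes, and the inside runs from the first gene's start to the last gene's end. Replicate values were read from the full lists of 300000 peaks, at the closest summit no farther than 100 bp, and lists of equal length take the strongest 49959 of each. The CTCF matrix of 20 bases was refined in 10 rounds on the strongest 1000 peaks of chromosomes without histone members, and a hit had to reach the score of the top 5% of windows taken 1 kb away. Exact 95% intervals are Clopper-Pearson and cover counting error over genes or peaks only. All genes with a promoter peak were named, with the strongest edge and inside sites of each cluster, except 1 edge site whose sequence and values are not reported here, and the 3 strongest of each other list. Motif, zone, promoter and uniqueness steps were tested on simulated data. Python 3.11.15, numpy 2.4.6, pandas 2.3.3, scipy 1.17.1, pysam 0.24.0 and matplotlib 3.10.9 were used. Alternatives were the replicate and conservative lists, the strongest 50% of peaks, other promoter, edge and cluster limits, and each cluster left out. The members and lists were chosen with earlier results of these data known.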

Additional observations from a re-analysis of the deposited data

How the results depend on the processing

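Median signal was the least stable result. On the log2 scale, the edge median over the inside median was 0.20, but it was negative in the replicate lists (without replicate 1 or 2, from -0.42 to -0.29), in the conservative list (-0.35), in the strongest 50% of peaks (-0.074) and with edges 25 kb either side of each cluster end (-0.29). It was 0.38 with 100 kb edges, 0.58 with clusters split at 100 kb and 0.79 over clusters of 10 or more genes. Leaving out a cluster gave 0.016 (Hist2), 0.64 (Hist3), 0.010 (Hist1h2bl to Hist1h2bj) and 0.65 (Hist1h4h to Hist1h2aa), and leaving out summits at histone promoters gave 0.037.

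The edge to inside density ratio of 1.32 was 1.81 to 1.84 without a replicate, 2.11 with 25 kb edges, 2.51 with edges either side of each end and 2.20 without promoter summits, and turned to 0.925 with 100 kb edges and 0.960 with clusters split at 100 kb. Edge density (5.00) ranged from 5.80 to 6.40 without a replicate, and was 3 in the strongest 50%, 8 with 25 kb edges and 7.55 either side of each end. Inside density (3.78) ranged from 3.15 to 3.53 without a replicate, and was 1.89 in the strongest 50% and 2.27 without promoter summits. Promoter occupancy (19.4%) ranged from 13.4% to 14.9% without a replicate, and was 8.96% in the strongest 50% (17.2% of all coding genes), 41.8% at 5 kb and 70.1% in the full pooled list. With the gene record's TSS alone it was again 19.4%, beside 26.1% of all coding genes. The motif share (78.2%) was 79.6% to 80% without a replicate, 93.3% in the strongest 50% and 49.1% at the score that 1% of flanking windows reach. At that stricter score the share of all optimal peaks was 59.8%. Replicate agreement (87.3%) was 98.0% in the conservative list, 100% in the strongest 50% and 96.4% in full replicate lists. For these settings, and for the 93.3% motif share, the share over all peaks is not given. They are therefore not read as a result about histone sites. The optimal and conservative lists come from both replicate lists, so high agreement is partly built in. Some of these directions follow from the setting itself. Keeping only the strongest 50% of peaks can only lower densities and occupancy. A wider promoter limit can only raise occupancy, and a stricter score can only lower the motif share. The cause of the other shifts was not tested. The full pooled list, the unique-word limit and the removal of promoter summits were chosen after seeing the data. No paired analysis was possible because there is 1 group. Depth is unknown, so a missing peak is not shown to be an unbound site.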
